A study of Mus musculus with 44 samples.

Results

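These data describe the short-term effect of ATI-450, an oral inhibitor of the kinase MK2, on the intestine of inflamed TNFΔARE mice. The comparison is between 6 libraries from inflamed mice given the inhibitor (MKI1 to MKI6) and 5 from inflamed mice given vehicle (V1 to V5), 11 of the 44 libraries in the series, chosen by their labels alone. Inflamed mice were heterozygous (Tnf ΔARE/+) on C57BL/6, so each kept 1 allele with and 1 without the AU-rich element of Tnf. Their uninflamed littermates were Tnf +/+, and 5 of them received vehicle and 5 the inhibitor. All were randomized to treatment at 16 weeks of age. They received 3 mg/kg ATI-450, or vehicle made of methylcellulose and Tween20 in PBS, a second dose 16 h later, and were killed 90 min after it, whereas the series text speaks of 24 h. The labels call the tissue intestine, and the extraction protocol of the series names distal colon and ileum without tying either to a mouse. The sex of the mice is not in the labels used here, and nothing there says that mice of 1 group came from separate litters or cages.

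MK2 (gene Mapkapk2) is activated by the stress kinase p38 (Mapk14) and phosphorylates tristetraprolin (Zfp36), a protein that binds AU-rich elements in the 3′ untranslated region (UTR) of short-lived mRNAs and recruits the enzymes that degrade them. Phosphorylated tristetraprolin degrades less, so active MK2 keeps cytokine and chemokine mRNAs stable. Deletion of the Tnf element removes this brake from Tnf itself, and TNFΔARE mice develop a chronic ileitis driven by TNF.

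The element can be read in the reference transcripts of the genes on which the inhibitor would act, and these are printed because the comparison was described gene by gene for them. Capitals mark the nonamer TTATTTATT, searched on the transcript strand with overlapping matches counted. The windows of 30 bases come from the last exon of the protein-coding transcript chosen for each gene (GENCODE annotation, GRCm38). This was the transcript with the most nonamers in its 3′ UTR and, among equals, with the longest 3′ UTR. Nonamer counts are therefore the highest over the transcripts of a gene. The windows lie at chr17:35199679-35199708 on the minus strand (Tnf), chr5:90892604-90892633 and chr5:90905325-90905354 on the plus strand (Cxcl1 and Cxcl2), chr1:150105794-150105823 on the plus strand (Ptgs2) and chr7:28376961-28376990 on the minus strand (Zfp36).
Tnf: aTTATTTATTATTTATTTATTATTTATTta
Cxcl1: gggtcctatttatttatgtatTTATTTATT
Cxcl2: cTTATTTATTtatctatgtatTTATTTATT
Ptgs2: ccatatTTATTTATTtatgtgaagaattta
Zfp36: ggccctttatttatgacgactTTATTTATT
The whole 3′ UTR held 5 nonamers in Tnf, 4 in Cxcl2, 2 in Cxcl1, and 1 each in Ptgs2 and in Zfp36, whose product binds such elements and whose own mRNA carries one. Il1b, Cxcl5, Il6 and Il10 held no nonamer, but held 4, 5, 10 and 6 copies of the shorter pentamer ATTTA. For comparison, 8.55% of 13608 tested genes with an annotated 3′ UTR held at least 1 nonamer. The sequence printed for Tnf is the reference allele, and reads of the ΔARE allele were not separated from it in the counts.

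The 11 libraries held 5800923 to 12207682 counts each. Batch, as given by the labels, was close to confounded with treatment. Batch 2 held V1 to V4 and MKI1, batch 3 held V5 and MKI2 to MKI6, and all 10 wild-type libraries were of batch 2. The inhibitor effect is therefore given from a fit with a batch term and from one without it, and comparisons with other groups from the fit with the term unless stated. A within-batch comparison rests on MKI1 alone in batch 2 and on V5 alone in batch 3.

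A set of 3 vehicle libraries stood apart. V2, V3 and V4 had first principal component values of -37.3, -33.1 and -33.9, whereas the other 8 inflamed libraries lay between -4.05 and 27.4. Genes of ribosomal proteins took 3.58, 3.82 and 4.19% of the counts in V2, V3 and V4 against 2.62 to 3.07% in the other 8 (wild-type libraries, 2.02 to 4.00%). V1, of the same batch, had a median correlation of 0.955 with the inhibitor libraries and of 0.931 with the other vehicle libraries, and V5 one of 0.949 with the inhibitor libraries of batch 3 and of 0.921 with the other vehicle libraries. On this component V1 and V5 lay within the range of the inhibitor libraries.

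**Figure D1:**
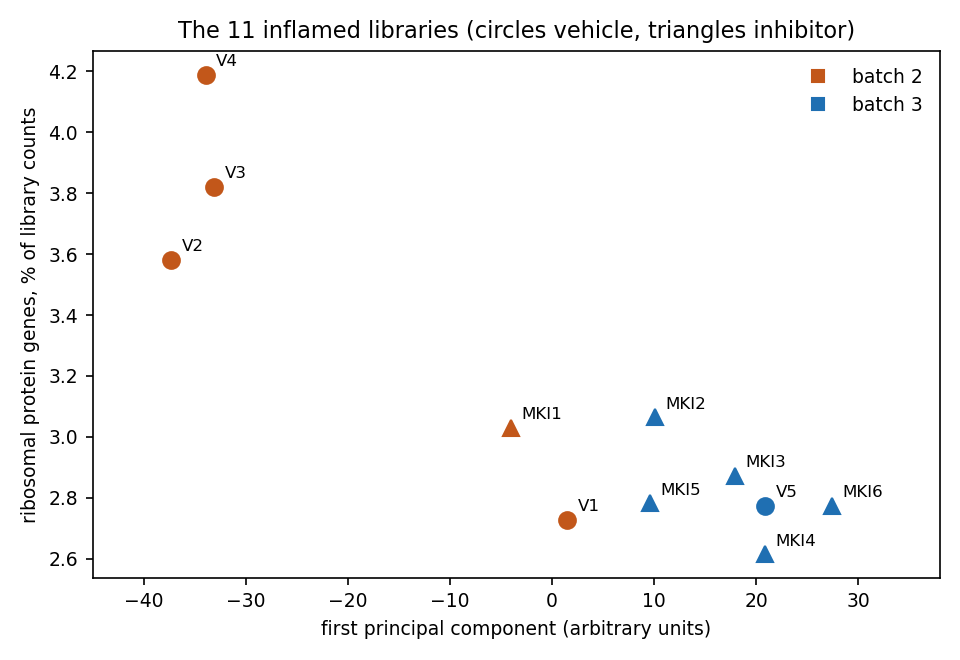
Each point is 1 inflamed library, placed by its first principal component over 1000 genes (x axis, arbitrary units) and by the share of its counts in ribosomal protein genes (y axis, percent), with circles for vehicle, triangles for inhibitor and colour for batch. V2, V3 and V4 lie at 3.58 to 4.19%, and V1 and V5 lie among the inhibitor libraries at 2.62 to 3.07%.

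Ileal markers were high in both groups. Fabp6, the ileal bile acid binding protein, was at 2209, 1851, 2181, 3468 and 1715 CPM (counts scaled to a common library size) in V1 to V5 and at 1189.5 to 2854 with the inhibitor (median 1709). Slc10a2, the ileal bile acid transporter, was at 176 to 409 and at 126 to 270 CPM. Hoxb13, a gene of the distal colon, was at or under 0.926 CPM in all 11. Car1, a colonocyte carbonic anhydrase, was at 740, 8.07, 416, 1.17 and 265 CPM in V1 to V5 and at 0.16 to 273 CPM with the inhibitor (median 50.6), against 0.396 to 2.64 CPM in wild-type vehicle libraries. It was therefore high in some libraries of each inflamed group and near the wild-type level in others. Ddx3y, a gene of the Y chromosome, was above 40 CPM in 2 of 5 vehicle and 3 of 6 inhibitor libraries and under 1 CPM in the rest.

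Inflammatory genes were well above the wild-type level. In the fit with the batch term, inflamed vehicle exceeded wild-type vehicle mice for Tnf by a log2 fold change of 5.08 (SE 0.470, adjusted p = 9.26e-07), for the acute phase gene Saa3 by 7.48 (SE 0.587, adjusted p = 1.62e-07) and for the calprotectin subunit S100a8 by 7.71 (SE 0.539, adjusted p = 8.43e-08).

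Across all genes, the inhibitor gave no call. With the batch term, 0 of 14370 genes (0%) passed an adjusted p of 0.05 in edgeR's quasi-likelihood test, and the smallest adjusted p was 0.996. Without the term, 0 genes (0%) passed as well and the smallest adjusted p was 0.0780. At an unadjusted p under 0.05, 191 genes (1.33%) passed with the term, 109 higher (0.759%) and 82 lower (0.571%) with the inhibitor. Without it 2272 passed (15.8%), 881 higher (6.13%) and 1391 lower (9.68%). All 191 genes of the first set had the same direction in the second fit and 138 of them passed there too. Both fits use the same libraries and differ only by the batch term, so this agreement is partly built in. DESeq2 called 1 gene with the term and 5 without it, limma-voom with library weights 3 and 3241, limma-voom without weights 4 and 0, and limma on the deposited normalized signal 0 and 0.

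The 3241 calls of weighted limma-voom (1555 higher, 1686 lower) stood alone among the fits without the term. In that fit V1 had a weight of 0.449 and V5 of 0.575, the lowest of the 11, and the inhibitor libraries had weights of 1.44 to 2.33. V2, V3 and V4 were set aside after they were seen to lie apart, whereas V1 and V5 lay among the inhibitor libraries on the first principal component. A smaller difference without V2, V3 and V4, here and below, is therefore partly built in by that choice. With V2, V3 and V4 left out, the number of genes at an unadjusted p under 0.05 was 118 with the term and 148 without it, in fits with 2 vehicle libraries. Within batch 3 alone the number was 337 and within batch 2 alone 245.

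The precision sets what could have been seen. The median 95% interval of a gene reached 1.52-fold to either side with the batch term and 1.38-fold without it. The intervals of the inflammatory genes were wider.

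Cytokine and chemokine transcripts that active MK2 stabilizes did not pass in either fit. Tnf was at 39.3, 55.6, 41.7, 26.8 and 15.6 CPM in V1 to V5 and ran from 13.2 to 31.4 CPM (median 26.9) with the inhibitor, against 0.437 to 1.88 CPM in wild-type vehicle libraries. V1, V2 and V3 lay above all 6 inhibitor libraries, V4 lay among them, and V5, the vehicle library of batch 3, lay below 5 of the 6. The log2 fold change of Tnf was 0.08 (SE 0.51) with the batch term and -0.57 (SE 0.38) without it, with intervals of 0.502-fold to 2.22-fold and of 0.391-fold to 1.16-fold. Within batch 2 alone it was -0.40, within batch 3 alone 0.53, and without V2, V3 and V4 it was -0.20 in the fit without the term. The sign of the Tnf difference thus varied with the vehicle libraries compared. The Tnf levels in batch 3 were lower than in batch 2 by 0.92 on the log2 scale in the fit with both terms (unadjusted p = 0.0864).

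Il1b, the gene of interleukin-1β, was at 39.7, 118, 36.0, 28.7 and 14.1 CPM in V1 to V5 and at 18.0 to 42.2 CPM (median 23.2) with the inhibitor. Only V2 lay above the inhibitor range, and V5 below it. The log2 fold change was 0.17 (SE 0.68) with the term and -0.81 (SE 0.50) without it.

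The neutrophil chemokines Cxcl1 and Cxcl2 had an unadjusted p under 0.05 without the batch term and not with it. Cxcl1 was at 5.17, 11.6, 4.25, 3.50 and 1.61 CPM in V1 to V5 and at 1.34 to 3.33 CPM (median 2.69) with the inhibitor. V1 to V4 lay above all inhibitor libraries and V5 lay among them. The log2 fold change was -1.09 (SE 0.51, unadjusted p = 0.0427, adjusted p = 0.308 in edgeR) without the term and -0.23 (SE 0.73) with it. Within batch 2 it was -0.89 and within batch 3 0.47.

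Cxcl2 was at 1.87, 4.91, 3.13, 1.87 and 0.805 CPM in V1 to V5 and at 0.755 to 1.76 CPM (median 1.06). Again V1 to V4 were above the inhibitor range and V5 was inside it. The log2 fold change was -1.16 (SE 0.51, unadjusted p = 0.0337, adjusted p = 0.307) without the term and -0.56 (SE 0.80) with it, and 0.48 within batch 3. For Cxcl5, made chiefly by epithelium and stroma, the groups overlapped throughout, at 48.7, 74.9, 27.5, 27.8 and 22.0 CPM with vehicle and 19.2 to 53.9 CPM (median 41.8) with the inhibitor, and the log2 fold change was 0.40 (SE 0.55) with and -0.07 (SE 0.40) without the term.

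Ptgs2, the inducible cyclooxygenase, was at 10.8, 14.1, 9.62, 6.65 and 6.57 CPM in V1 to V5 and at 4.32 to 8.88 CPM (median 6.90) with the inhibitor. V1, V2 and V3 were above the inhibitor range. Its log2 fold change was -0.22 (SE 0.39) with the term and -0.48 (SE 0.29) without it. Il6 and Il10 were under the count filter. Il6 had 8 counts in 2 vehicle libraries and 0 in the inhibitor libraries, each of which allows up to 3 counts. Il10 had 14 counts over the 5 vehicle and 13 over the 6 inhibitor libraries. Neither gene was tested, so no difference is claimed for either at this depth.

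**Figure D2:**
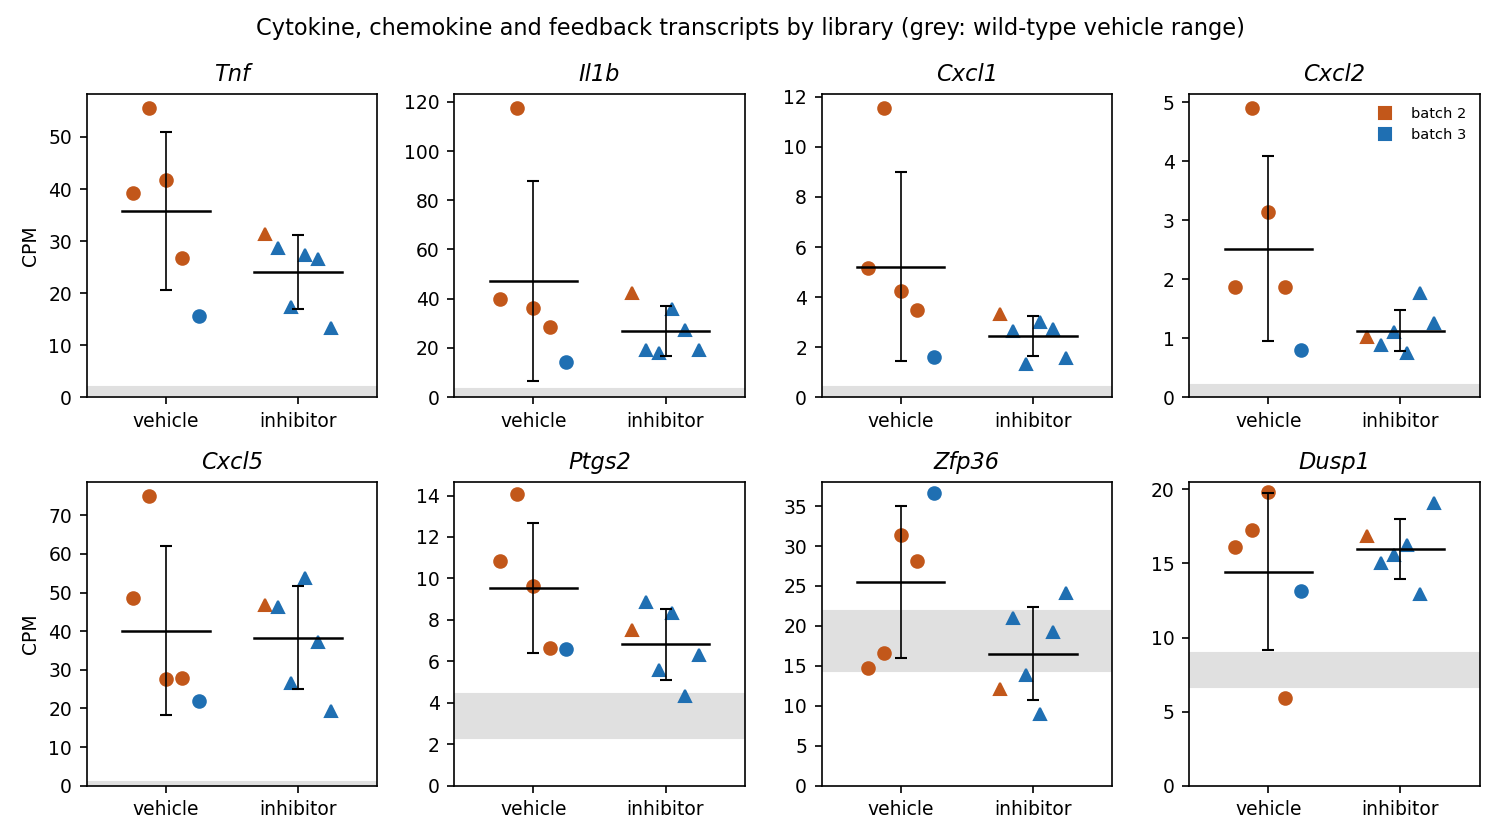
Each point is 1 library (y axis, CPM from 0), circles for vehicle, triangles for inhibitor, colour for batch, with the group mean as a line, 1 SD as a bar and the wild-type vehicle range in grey. For Tnf, Cxcl1 and Cxcl2 the vehicle library of batch 3 lies at 15.6, 1.61 and 0.805 CPM, inside the inhibitor range.

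Of 25 genes listed as AU-rich cytokine and mediator mRNAs, 14 were tested. None passed an unadjusted p of 0.05 with the term and 2, Cxcl1 and Cxcl2, were lower at that level without it (all genes, 9.68%). The median log2 fold change of the 14 was 0.01 with the term (all genes, 0.01) and -0.44 without it (all genes, 0.02), when all 14 were below 0. It was -0.41 within batch 2, 0.47 within batch 3 and -0.21 without V2, V3 and V4 in the fit without the term. The mean log2 level of the list was 2.35, 2.79, 2.29, 2.18 and 1.76 in V1 to V5 and 1.78 to 2.16 with the inhibitor (median 2.00).

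Genes that carry the nonamer were slightly more often above 0 than all genes. Over 1163 tested genes with at least 1 nonamer in the 3′ UTR, the median log2 fold change was 0.07 with the term and 0.10 without it, against 0.01 and 0.02 over the 13608 genes with a UTR, and 59.8 and 60.9% of them were above 0 against 52.4 and 52.6%. Of the 1163, 14 were higher and 4 lower with no overlap between the groups, against 119 and 69 of the 13608. Of the 1163, 1.46 and 13.2% had an unadjusted p under 0.05, against 1.18 and 15.9% of the 13608. Over 96 genes with at least 3 nonamers the medians were 0.01 and 0.00, 52.1% were above 0 with the term, and 5.21 and 16.7% had such a p.

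The kinase genes themselves overlapped between the groups. Mapkapk2, the target of the drug, was at 140, 144, 111, 116 and 105 CPM in V1 to V5 and at 116 to 150 CPM (median 133) with the inhibitor. Its log2 fold change was 0.19 (SE 0.14) with and 0.11 (SE 0.10) without the term, with intervals of 0.934-fold to 1.39-fold and of 0.934-fold to 1.26-fold. An inhibitor of the enzyme need not change its mRNA, so this level is no check of target engagement. Mapk14, the p38α gene, was at 92.6, 65.2, 54.2, 60.8 and 89.2 CPM with vehicle, so that V2, V3 and V4 were below the inhibitor range of 82.2 to 98.6 CPM and V1 and V5 within it. Mapkapk5, a related kinase gene, was high in V2, V3 and V4, at 42.1, 73.6, 79.2, 80.8 and 48.3 CPM in V1 to V5 and 36.5 to 49.0 with the inhibitor. Its log2 fold change without the term went from -0.59 (unadjusted p = 0.00281) to -0.07 without V2, V3 and V4. Over 18 tested genes of the pathway the median was 0.00 with the term and -0.03 without it.

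Zfp36, the tristetraprolin gene, had the smallest p with the batch term among the 12 genes followed by rule. It was at 14.8, 16.6, 31.3, 28.1 and 36.6 CPM in V1 to V5 and ran from 8.94 to 24.1 CPM (median 16.6) with the inhibitor. V3, V4 and V5 were above all inhibitor libraries and V1 and V2 were inside their range. This gave a log2 fold change of -0.996 (SE 0.29, unadjusted p = 0.00277, adjusted p = 0.996 in edgeR) with the term and -0.63 (SE 0.25, unadjusted p = 0.0201, adjusted p = 0.302) without it. It was -0.94 within batch 2, -1.09 within batch 3 and -0.64 without V2, V3 and V4. Zfp36 was always named, but it was also among the lower genes taken by the smallest p of the fit with the term. That fit pools the batches, so the shared direction of Zfp36 between batches is partly built in and is no separate support. In wild-type littermates the inhibitor's log2 fold change for Zfp36 was 0.35 (SE 0.24), and the difference between inflamed and wild-type mice was -1.35 (SE 0.38, unadjusted p = 0.00199, adjusted p = 1). Zfp36 was also among the genes taken by the smallest p of this difference, so the size of the difference is a description. The vehicle library lowest in Tnf, V5, was the one highest in Zfp36, whereas V3 was above V1 and V4 in both. A relation between these transcripts was not tested.

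Dusp1, the phosphatase that inactivates p38, was at 16.1, 17.2, 19.8, 5.95 and 13.1 CPM in V1 to V5 and at 13.0 to 19.1 CPM (median 15.9), with a log2 fold change of 0.23 (SE 0.32) with and 0.14 (SE 0.24) without the term. Of 16 tested genes of AU-rich element binding and mRNA decay, Zfp36 was the 1 with an unadjusted p under 0.05 in either fit. Over all genes, 0.571% were lower at that level with the term and 9.68% without it, so the count without the term was no more than that share. Immediate early genes, which the same stress kinases induce, had none of 14 with the term and 2 lower without it, Ier2 and Junb, a share near the 9.68% of all genes. Junb was at 136, 197, 177, 154 and 99.4 CPM with vehicle and 96.9 to 133 with the inhibitor, where V5 again lay inside the inhibitor range.

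**Figure D3:**
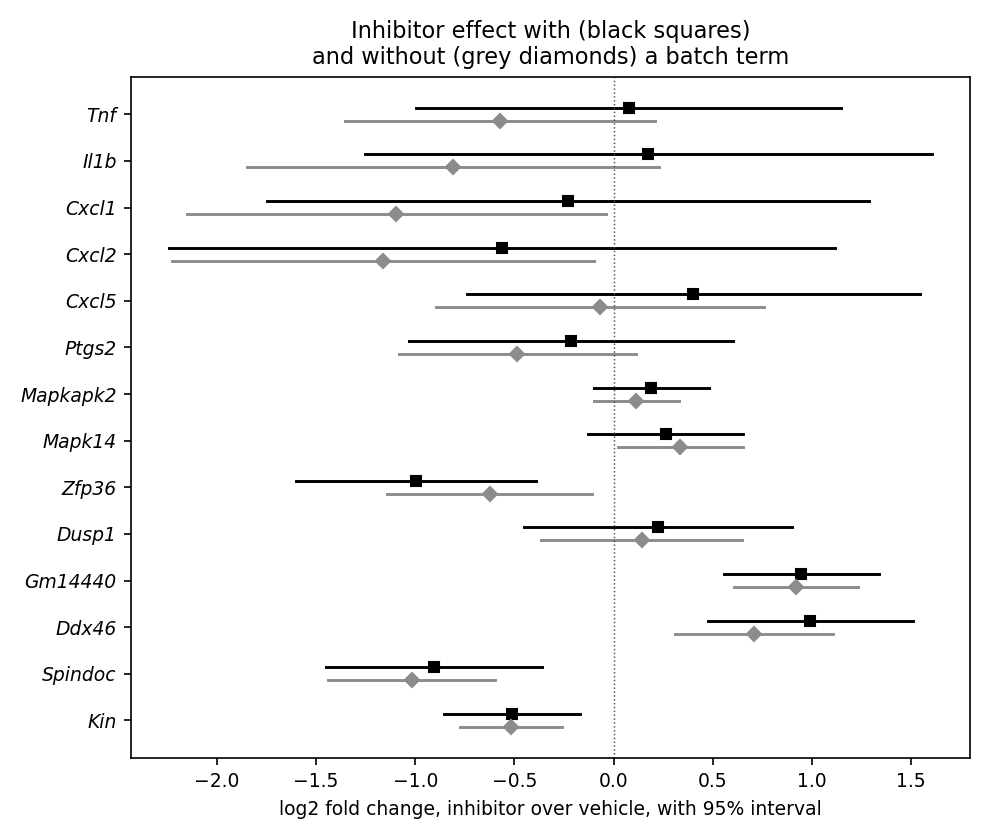
Squares (with a batch term) and diamonds (without) give the log2 fold change of inhibitor over vehicle (x axis) for 14 genes, and bars the 95% interval. For Tnf the interval runs from -0.99 to 1.15 with the term and from -1.36 to 0.21 without it, and for Gm14440 it lies above 0 in both.

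The genes with the smallest p-values outside the pathway belonged to no single list, and none passed adjustment. All but Gm14440 and Csf1r were named by the p of the fit with the term. Gm14440 was named as 1 of the 5 genes with the smallest p for the difference between inflamed and wild-type mice. That difference holds the same inhibitor effect in inflamed mice and uses the wild-type libraries too. The folds of these genes, and the place of Gm14440 beside wild-type levels, are therefore a description. Gm14440, annotated as a zinc finger protein gene within a cluster of near-identical copies on chromosome 2 among which reads may be split, had the smallest p of all genes in both fits. It was at 6.17, 5.78, 5.37, 6.65 and 6.98 CPM in V1 to V5 and at 10.1 to 13.7 CPM (median 11.8) with the inhibitor, so the groups did not overlap. Wild-type vehicle libraries were at 12.3 to 16.0 CPM and wild-type inhibitor libraries at 8.55 to 16.2, so the inhibitor libraries lay nearer to wild-type than the inflamed vehicle libraries did. For Gm14440 the log2 fold change was 0.95 (SE 0.19, unadjusted p = 7.06e-05, adjusted p = 0.996) with the term and 0.92 (SE 0.15, unadjusted p = 5.43e-06, adjusted p = 0.0780) without it, and DESeq2 without the term gave an adjusted p of 0.000382. The value was 1.17 within batch 2, 0.68 within batch 3 and 0.83 without V2, V3 and V4. Gm14440 was chosen by a difference that pools the batches of the inflamed mice. Its shared direction between batches is therefore partly built in and is no separate support.

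Ddx46, an RNA helicase of the splicing machinery, was at 46.3, 66.1, 38.5, 56.2 and 32.3 CPM in V1 to V5 and at 70.3 to 86.5 CPM (median 78.9) with the inhibitor. The groups did not overlap, and wild-type vehicle libraries spanned both, at 36.8 to 79.6 CPM. That is a log2 fold change of 0.99 (SE 0.25) with and 0.71 (SE 0.19) without the term. Khnyn, a cofactor of the antiviral protein ZAP in RNA degradation, was at 5.24, 7.30, 7.72, 1.98 and 3.62 CPM in V1 to V5 and at 9.30 to 17.6 (median 11.9). Slc36a4, an amino acid transporter, was at 14.6, 15.5, 12.6, 11.1 and 14.6 CPM and at 17.0 to 24.4 (median 18.8). Ust, a sulfotransferase gene, was at 0.215, 0.654, 0.895, 1.52 and 0.537 CPM and at 2.01 to 2.40 (median 2.21). In Khnyn, Slc36a4 and Ust too, every inhibitor library was above every vehicle library, as in 121 of all 14370 tested genes (0.842%).

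Cd33, an inhibitory receptor of myeloid cells, had the largest fold of the named genes that were higher. It was at 0.502, 2.29, 0, 0.350 and 0 CPM in V1 to V5 and at 1.96 to 7.50 CPM (median 3.57) with the inhibitor, and V2 overlapped the inhibitor range. Its log2 fold change was 3.95 with the term, with an interval from 1.29 to 6.6, and 2.70 (SE 0.96) without it. Csf1r, the receptor gene of macrophage colony-stimulating factor, was not named by the p of the fit with the term but picked with its values in view. Csf1r was at 299, 190, 136, 142 and 193 CPM with vehicle and 217 to 422 with the inhibitor. Sphk2, a sphingosine kinase, Zfp882 and B4galnt4 overlapped between the groups, with log2 fold changes of 0.65, 0.96 and 1.29 with the term and of 0.50, 0.87 and 0.78 without it.

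Among the 8 lower genes named by that p, 2 did not overlap between the groups, against 70 of all 14370 tested genes (0.487%). Spindoc, a binding partner of the chromatin reader spindlin 1, was at 7.97, 8.39, 12.2, 9.21 and 8.72 CPM in V1 to V5 and at 3.20 to 5.28 CPM (median 4.66) with the inhibitor, with a log2 fold change of -0.91 (SE 0.26) with and -1.02 (SE 0.20) without the term. Kin, a zinc finger protein of DNA repair, was at 11.7, 12.5, 11.4, 13.5 and 12.1 CPM and at 7.54 to 9.44 CPM (median 8.67), with -0.51 (SE 0.16) and -0.52 (SE 0.12). In each batch alone the values were -0.86 and -0.98 for Spindoc and -0.55 and -0.51 for Kin. Both genes were chosen by the p of the fit with the term, which pools the batches. Their closeness between batches is therefore partly built in and is no separate support. Qdpr, which regenerates tetrahydrobiopterin, was at 9.47, 25.2, 25.6, 27.1 and 28.2 CPM and at 8.89 to 18.9 (median 11.4), where V1 alone lay among the inhibitor libraries. Nrn1, Mpp3, Eif4ebp3 and Ss18l2 overlapped, with log2 fold changes of -3.16, -1.21, -0.92 and -1.94 with the term and of -1.44, -0.90, -0.65 and -0.97 without it.

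**Figure D4:**
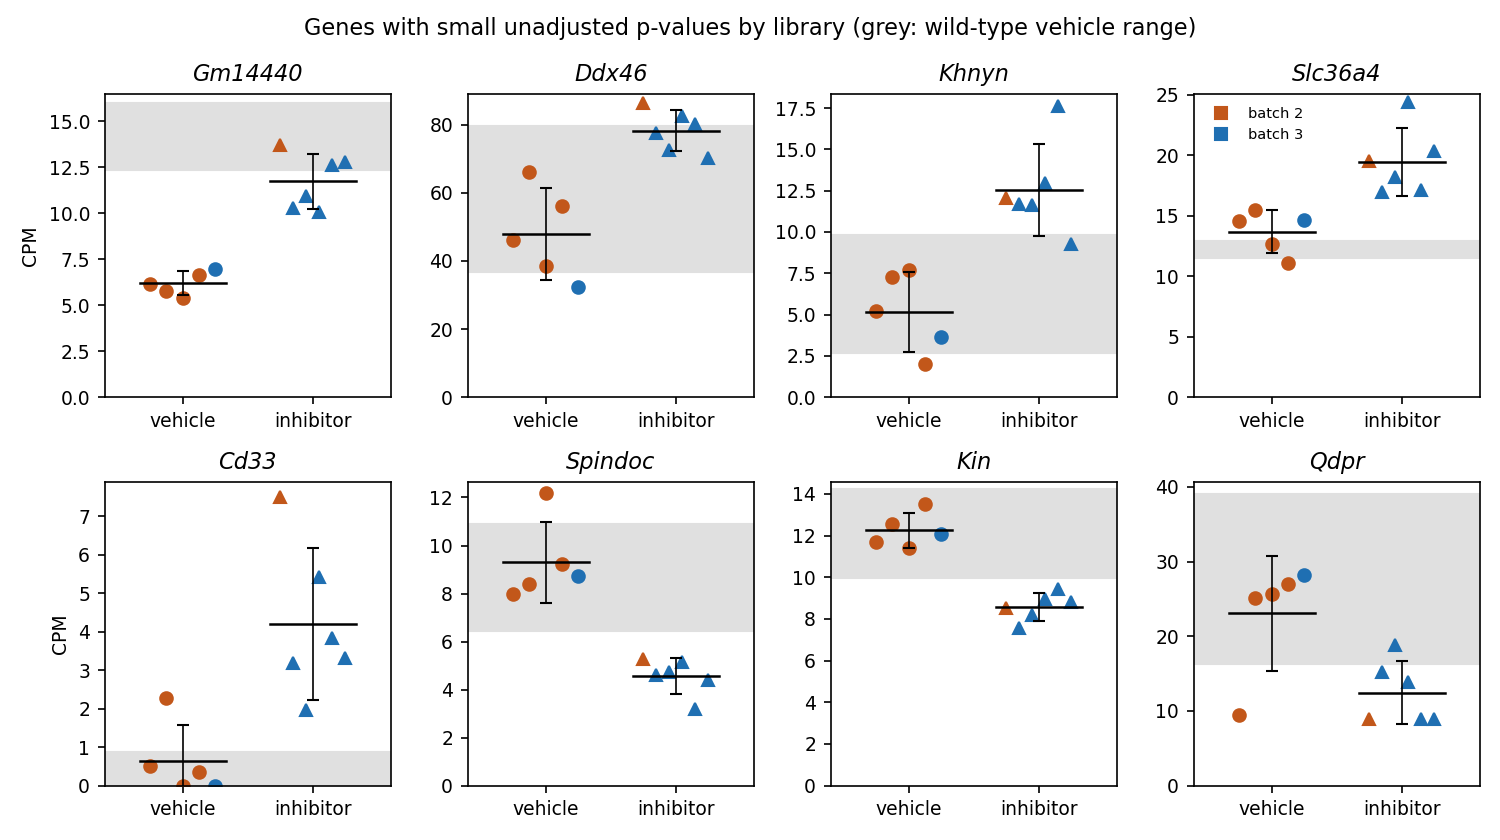
Each point is 1 library (y axis, CPM from 0), circles for vehicle, triangles for inhibitor, colour for batch, with the group mean as a line, 1 SD as a bar and the wild-type vehicle range in grey. In Gm14440, Ddx46, Khnyn, Slc36a4, Spindoc and Kin no vehicle library lies within the inhibitor range, and in Qdpr V1 does, at 9.47 CPM.

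Over all tested genes, 121 (0.842%) had every inhibitor library above every vehicle library and 70 (0.487%) the reverse. Of these, 8 belonged to a gene list, as did 677 of the 14370 tested genes, and they are named here after their values were seen. Lgr5 and Tnfrsf19 of intestinal stem cells, Tek of endothelium, the prostaglandin E receptor gene Ptger1 and the deadenylase scaffold gene Cnot1 were higher, and the interferon-stimulated genes Isg15 and Oas1a and the HSP90 cofactor gene Ahsa1 were lower.

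Interferon-stimulated genes were the list with the most members at an unadjusted p under 0.05 without the batch term. Of 20 tested genes of the type I interferon response, 18 were below 0 in each fit, with a median of -0.27 with the term and -0.53 without it, but none had an unadjusted p under 0.05 with the term and 8, all lower, had one without it (all genes, 9.68% lower). The median was -0.47 within batch 2, -0.32 within batch 3 and -0.44 without V2, V3 and V4 in the fit without the term. Isg15 was at 13.5, 13.0, 23.3, 23.7 and 10.1 CPM in V1 to V5 and at 4.57 to 9.41 CPM (median 7.01), below all vehicle libraries. Its log2 fold change was -1.22 (unadjusted p = 0.00787, adjusted p = 0.2999) without the term and -0.83 (unadjusted p = 0.158) with it. Wild-type vehicle libraries had 13.8 to 67.1 CPM of Isg15 and 0.316 to 4.60 CPM of Mx1, a GTPase that restricts viruses, against 0.671 to 5.13 CPM of Mx1 in V1 to V5 and 0.0888 to 0.926 with the inhibitor.

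Markers of infiltrating cells were at overlapping levels. In bulk tissue, fewer cells of a type and less RNA per cell cannot be told apart. The neutrophil list had a median of 0.08 with and -0.24 without the term, and S100a8 was at 27.9, 73.4, 24.7, 25.8 and 18.5 CPM in V1 to V5 and at 16.5 to 33.5 (median 26.1) with the inhibitor. V2 alone was above the inhibitor range, as it was for Il1b. Saa3 was at 453, 969, 483, 420 and 253 CPM in V1 to V5 and at 196 to 366 with the inhibitor, where V1 to V4 were above the range and V2 highest. The monocyte and macrophage list had medians of 0.25 and 0.17, with 4 of 20 genes higher at an unadjusted p under 0.05 without the term, Csf1r and the F4/80 gene Adgre1 among them, and none with it (all genes, 6.13% higher without and 0.759% with the term). T cell and B or plasma cell lists had 1 of 20 and 0 of 17 such genes without the term, no more than that share, and none with it.

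The collagen, endothelial and stem cell lists were lowest in V2, V3 and V4, whereas the smooth muscle and lymphoid stroma lists did not have this order. The collagen list had a mean log2 level of 6.37, 5.31, 4.80, 5.41 and 6.49 in V1 to V5 and of 6.19 to 6.97 with the inhibitor, so V2, V3 and V4 were low and V1 and V5 were within the inhibitor range. Its median log2 fold change was 0.77 without the term, 0.36 with it and 0.15 without these libraries, and 6 of 18 genes were higher at an unadjusted p under 0.05 without the term (all genes, 6.13%) and none with it (0.759%). Col3a1, the gene of type III collagen, was at 318, 166, 153, 188 and 410 CPM in V1 to V5 and at 309 to 597 with the inhibitor. The endothelial list had 4.19, 3.34, 2.92, 3.27 and 4.02 in V1 to V5 and 3.97 to 4.30 with the inhibitor, and its median went from 0.67 to 0.06 without those 3 libraries. The stem cell and Wnt list went from 0.34 to -0.11, and Lgr5, at 14.5, 5.56, 5.59, 9.21 and 13.7 CPM with vehicle and 15.6 to 17.9 with the inhibitor, from 0.77 to 0.23. As V2, V3 and V4 were left out after they were seen to lie apart, these drops are partly built in.

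The respiratory chain list and Atf4 were highest in V2, V3 and V4, which did not hold for the lists of fatty acid oxidation and of mitochondrially encoded genes. The respiratory chain list was at 7.07, 7.63, 7.90, 7.95 and 7.31 in V1 to V5 and at 7.05 to 7.25 with the inhibitor. Of 22 genes, 7 were lower at an unadjusted p under 0.05 without the term (all genes, 9.68%), none was with it (0.571%), and the median of -0.37 became 0.06 without V2, V3 and V4. Atf4, the transcription factor of the integrated stress response, was at 111, 217, 193, 197 and 102 CPM in V1 to V5 and at 65.3 to 119 (median 87.3) with the inhibitor. Its log2 fold change was -0.91 (SE 0.20, adjusted p = 0.2999 in edgeR and 0.0254 in DESeq2) without the term and -0.46 (SE 0.22, unadjusted p = 0.0456) with it, but -0.29 without those 3 libraries. Ribosomal protein genes themselves had a median of -0.36 without the term and -0.17 with it, with 77 of 80 below 0 without it. These lists moved with the share of ribosomal protein transcripts across the vehicle libraries, and the part of that share, and of the batch, in them was not tested.

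The Paneth and adipocyte lists had opposite signs in the 2 fits. The Paneth cell list was at 8.26, 5.19, 8.52, 9.63 and 9.64 in V1 to V5 and at 8.29 to 9.62 with the inhibitor, so that V2 stood alone, and its median was -0.43 with and 0.25 without the term. Lyz1, Paneth cell lysozyme, was at 3445, 613, 4853, 6599 and 4706 CPM in V1 to V5 and 4741 to 6215 with the inhibitor. V2 was thus the vehicle library lowest in Paneth cell transcripts and highest in Tnf, Il1b, Cxcl1, S100a8 and Saa3. The adipocyte list, whose defining gene Adipoq ran from 0 to 25.1 CPM with vehicle and from 0 to 66.2 with the inhibitor, had a median of -0.997 with and 0.72 without the term.

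**Figure D5:**
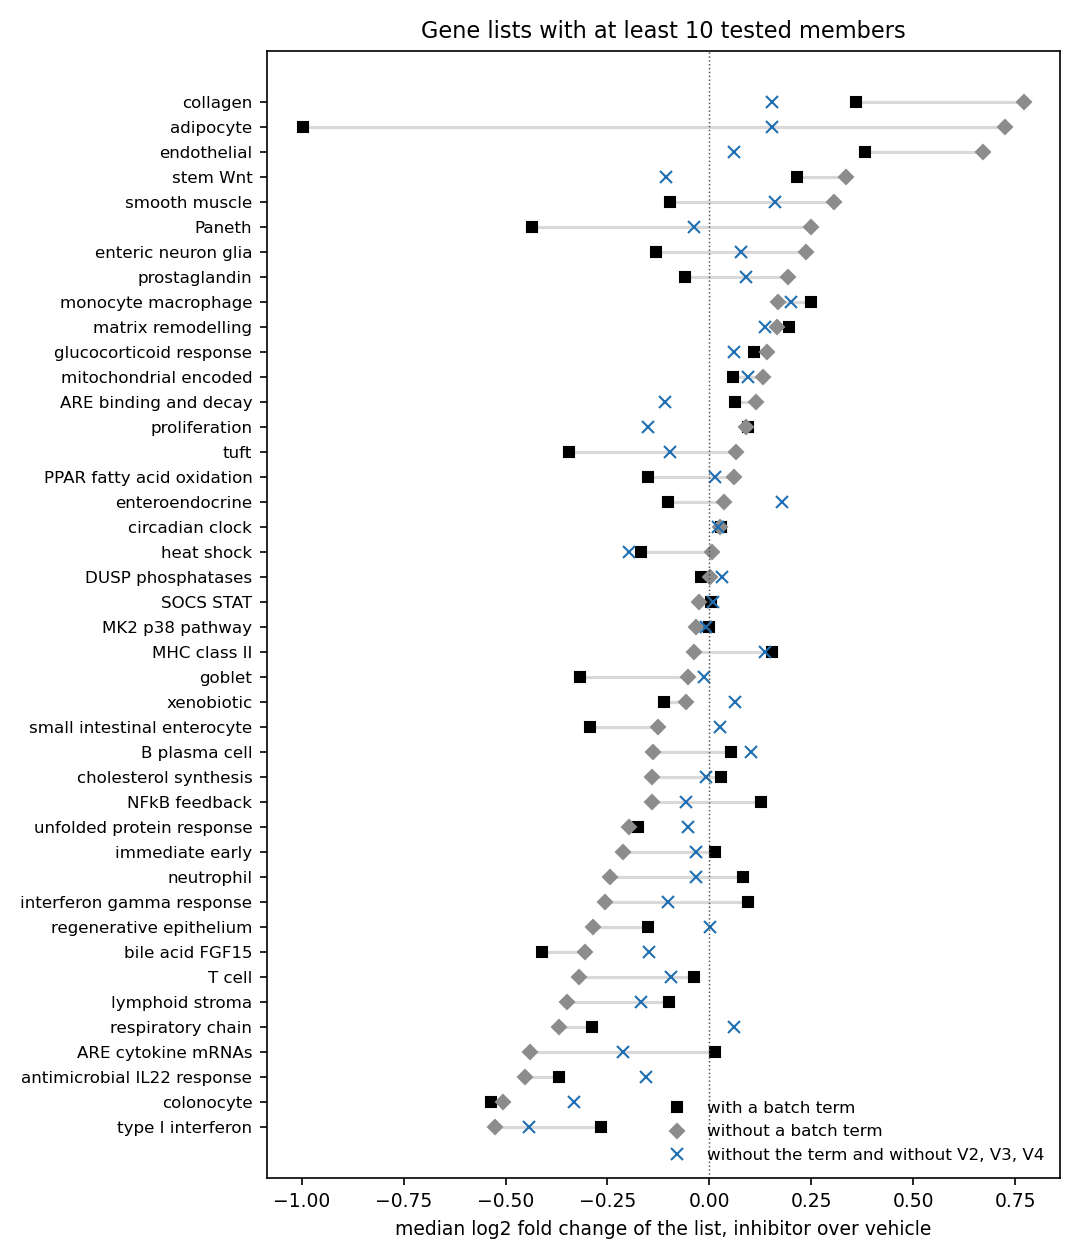
For 42 gene lists with at least 10 tested members (rows), the x axis gives the median log2 fold change of inhibitor over vehicle with a batch term (squares), without it (diamonds), and without the term and without V2, V3 and V4 (crosses). The collagen and endothelial medians are 0.77 and 0.67 without the term and 0.15 and 0.06 in the last fit, where the type I interferon median is -0.44.

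Antigen receptor genes were a further group at small p with the term, seen after the fact. Of 178 tested immunoglobulin genes, 11 were higher and none lower at an unadjusted p under 0.05 with the term (all genes, 0.759% higher and 0.571% lower), and 15 were higher and 2 lower without it (all genes, 6.13 and 9.68%). Their median was 0.53 with and 0.46 without the term. The weighted limma-voom fit with the term called Ighv7-4 and Igkv14-126 beside Cd33, all higher. Reads of such segments can be split among close copies.

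The response in inflamed mice was not shown to differ from that in wild-type littermates: 0 of 14370 genes (0%) passed for the difference of the inhibitor effects in edgeR, and 230 had an unadjusted p under 0.05. Without the batch term 0 passed as well and 1016 had such a p. The smallest p belonged to Gm14440, with a difference of 1.21 (SE 0.24, unadjusted p = 8.59e-05, adjusted p = 1), as its fold change in wild-type mice was -0.26 (SE 0.15). Next came Hp, the haptoglobin gene, at 207, 199, 140, 108 and 113 CPM in V1 to V5 and 96.7 to 174 with the inhibitor. Its difference of 3.75 (SE 0.86, adjusted p = 1) came with a wild-type fold change of -3.74, where vehicle libraries held 2.60 to 30.7 CPM and inhibitor libraries 0 to 1.69. Both contrasts use the batch term, which wild-type libraries do not inform.

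The comparison with inflamed T cell transfer mice, in which the same dose was given to Rag1 null mice with colitis, depended on the batch term. In a joint edgeR fit with batch terms, 0 of 15565 genes (0%) passed for the difference and 540 had an unadjusted p under 0.05, whereas without batch terms 39 passed, all with a higher fold change in TNFΔARE mice, Sis and Apoa1 among them. The Tnf difference was -0.05 (SE 1.16), with log2 fold changes of 0.08 here and 0.12 (SE 0.74) in the transfer mice. For Ddx46 the fold change in transfer mice was -0.36 (SE 0.20) and the difference 1.34 (SE 0.32, unadjusted p = 0.000143, adjusted p = 0.879). Sucrase-isomaltase (Sis) and Apoa1, enterocyte genes, were among the smallest p-values with differences of 10.8 and 12.0. They were at 6070 and 10700 CPM in 1 transfer vehicle library, at 186 and 331 in another and at or under 0.921 in every transfer inhibitor library, so these differences rest on 2 transfer vehicle libraries. In TNFΔARE mice Sis was at 782 to 1544 CPM in V1 to V5 and at 746 to 1416 with the inhibitor.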

How the data were processed

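RNA of mouse intestine was sequenced after poly-A selection with a strand-specific kit, per the labels' protocols. The authors deposited expected counts per gene (estimated with Salmon 0.14.1, builds mm10 and GRCm38, per the submitters' processing notes) and a table of normalized signal, which the notes link to DESeq2 without a version. Of 29720 genes, 29395 identifiers matched a symbol.

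Expected counts were rounded to whole numbers here. Tests used edgeR 4.0.16 in R 4.3.3: filterByExpr (14370 genes kept), TMM scaling and a robust quasi-likelihood fit to all 21 TNFΔARE libraries, with group and, in one of 2 main fits, batch as terms. Tests were two-sided with Benjamini-Hochberg adjustment over all genes at 0.05. Levels are CPM on TMM-scaled library sizes. SE is the absolute log2 fold change over the root of F, and intervals cover 95%. List levels are mean log2(CPM + 1). P-values measure the spread between these libraries. The fits were also run on simulated counts with planted changes. These held no shift between batches, so they cannot show how either fit behaves under the batch imbalance here.

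The members, the 47 gene lists and the named genes were chosen with earlier results of these data known. The rule names 12 genes always, up to 8 per direction called in both fits or else with the smallest p of the fit with the batch term (mean of at least 1 CPM, no unnamed models, pseudogenes or receptor segments), 2 called members of a list, and 5 genes per difference. As no gene was called, the list examples and remaining genes were picked with their values in view. Of 783 list entries, 702 were tested. Nonamers were searched in 3′ UTRs of GENCODE transcripts, keeping for each gene the protein-coding transcript with the most nonamers and, among equals, the longest 3′ UTR. Other settings tried were DESeq2 1.42.0, limma-voom (limma 3.58.1), RLE size factors, limma on log2 of the deposited normalized signal plus 1, no count filter, the 2 inflamed groups alone, single batches, a replicate block, a 2-fold minimum, each library left out, and V2, V3 and V4 left out, the last and unweighted limma-voom added after seeing the data.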

Additional observations from a re-analysis of the deposited data

Results flagged for a closer look

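Dixon's test was applied to CPM without logs, in genes partly picked with their values in view. Its nominal rate of about 1 in 20, for independent normal values, therefore does not hold here. Among 279 groups of values of named genes, 24 had 1 library far from the others of its group by this test.

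Of these, 5 were V2: Il1b at 118 CPM (next library 39.7), S100a9 at 108 (36.1), S100a8 at 73.4 (27.9), the epidermal growth factor family gene Areg at 23.2 (7.46) and Cd33 at 2.29 (0.502). In the other vehicle libraries the distant values were 9.47 CPM of Qdpr in V1 (next 25.2), 150 of the immunoglobulin segment Igkv5-48 (58.5) and 5770 of the antimicrobial lectin gene Reg3b (1800) in V3, and in V4 11.5 of the mast cell protease gene Mcpt1 (2.24), 1570 of the goblet cell mucin gene Muc2 (768) and 3470 of Fabp6 (2210). V5 had 22.0 CPM of the lipid droplet gene Plin4 (8.4).

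Among inhibitor libraries MKI6 was distant most often, with Adipoq at 66.2 CPM (20.7), Plin4 at 48.2 (16.5), Abcd2 at 17.6 (6.48), Ccr3 at 8.67 (1.65), Chac1 at 2.99 (2.22), Saa3 at 196 (313) and S100a9 at 9.93 (25.9). The others were Hoxb13 at 0.926 CPM in MKI1 (0), Zfp882 at 1.69 in MKI2 (2.91), Eif4ebp3 at 16.5 in MKI3 (9.94), Nos1 at 10.3 in MKI4 (4.44) and Ss18l2 at 3.04 in MKI5 (1.26).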

How the results depend on the processing

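With the batch term, the count of called genes was 0 in edgeR, 3 with weighted and 4 with unweighted limma-voom and 1 with DESeq2 (Zfp131, -3.41, which is at 0 CPM in MKI1 and 9.35 to 23.0 CPM in the other inhibitor libraries), and 0 to 1 with each library left out (1 without V5). At an unadjusted p under 0.05 it was 356 without a count filter, 471 with weighted limma-voom, 410 on the normalized signal, 317 with the 2 inflamed groups alone, 118 without V2, V3 and V4, and 131 to 460 with each library left out (131 without MKI1, 460 without V1). Without the batch term, calls were 3241 with weighted limma-voom, 5 with DESeq2 (Timm9, Spindoc, Atf4 and Elob lower, Gm14440 higher), 3 in batch 2 alone (Pam16, Fam133b and Zfp131, all at 0 CPM in MKI1), 9 in batch 3 alone, and 0 with each library left out, and genes at an unadjusted p under 0.05 were 5571 with weighted limma-voom, 3441 with the inflamed groups alone, 148 without V2, V3 and V4, 245 in batch 2, 337 in batch 3, and 1077 (without V3) to 3466 (without V1) with each library left out. The fits within 1 batch compare a single library with the other group and assume that it varies like the libraries of the other groups.

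Batch 3 against batch 2 gave 0 called genes and 629 at an unadjusted p under 0.05 in edgeR, 1137 with the 2 groups alone, and 0 to 1 and 214 to 884 with each library left out. The difference from wild-type mice gave 414 such genes without a count filter, 1016 without the batch term, and 0 to 1 calls and 168 to 371 such genes with each library left out. The difference from transfer mice gave 39 calls and 1420 such genes without batch terms, and 0 to 2 calls (2 without V5) and 280 to 756 such genes with each library left out. The cause of these changes was not tested.

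Replicate numbers were not a pairing: of 5 same-numbered pairs, 0 correlated at over 0.1 and 0 correlated best with their own number. With the replicate number as a block in the 2 inflamed groups, 0 genes were called with and without the batch term, and 252 and 2570 had an unadjusted p under 0.05. Over the alternatives of 136 tested named genes, 117 of 2716 values changed sign with the batch term and 93 of 2984 without it. Gene intervals of 1.52-fold (median, with the batch term) and 5800923 counts in the shallowest library limit what could be called.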

Other observations

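Transcripts of red blood cells varied among vehicle libraries. Hbb-bs, a β-globin gene, was at 20.5, 224, 113, 52.4 and 29.7 CPM in V1 to V5 and at 18.4 to 55.8 CPM (median 26.1) with the inhibitor, and the 4 tested erythroid genes were all lower at an unadjusted p under 0.05 without the batch term (all genes, 9.68%) and none was with it (0.571%). Without V2, V3 and V4 the median of these genes went from -1.40 to 0.11. Slc51b, a subunit of the basolateral bile acid exporter, was at 174, 364, 356, 502 and 150 CPM in V1 to V5 and at 117 to 164 CPM with the inhibitor. Secretin (Sct), an enteroendocrine hormone gene, was at 12.8, 31.4, 28.9, 36.7 and 13.0 CPM in V1 to V5 and at 9.57 to 14.5 with the inhibitor. In both genes V2, V3 and V4 were high and V1 and V5 were near the inhibitor libraries.

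Il6ra, the interleukin-6 receptor gene, was at 6.75, 4.36, 2.46, 2.33 and 7.51 CPM in V1 to V5 and at 6.57 to 17.1 CPM (median 10.9) with the inhibitor, with a log2 fold change of 1.14 (SE 0.61) with the batch term and 1.29 (SE 0.52, adjusted p = 0.304 in edgeR) without it, and of 0.69 without V2, V3 and V4. Ciart, a repressor of the circadian clock, was at 1.08, 1.31, 1.68, 1.87 and 0.805 CPM in V1 to V5 and at 0 to 1.42 with the inhibitor, whereas the clock list as a whole had a median of 0.03 in both fits.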
